A study of Rattus norvegicus with 16 samples.

Results

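The comparison described here sets the induced membrane (IM) that grew around a cement spacer in a bone defect against the tissue of the empty defect in the other limb of the same animal, which the labels call pre-fibrous non-union (PFNU). It uses 8 of the 16 RNA-seq libraries of the study, 4 of IM and 4 of PFNU, chosen by their titles, and pairs them by rat. Each of 4 Sprague-Dawley rats carried plated osteotomies on both sides. A polymethyl methacrylate (PMMA) cement spacer filled 1 defect and the other stayed empty, so both groups share the rat, the plate and the osteotomy, and differ in the spacer and the limb. Tissue was taken at 4 weeks of healing. The other 8 libraries came from bone beside the spacer and bone beside the empty defect of the same rats. The labels used here give neither the bone that was cut nor the age or sex of the rats, and they do not say how the membrane was dissected from neighbouring tissue.

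In the Masquelet technique a cement spacer is left in a bone defect until a sheath of vascular connective tissue has formed around it, and bone graft is then packed into that sheath. The sheath is built by fibroblasts, which secrete collagens, elastic fibres, proteoglycans and fibronectin, and it holds macrophages, which take up debris and line foreign material. Matrix proteins reach the outside of the cell through a shared route: they enter the endoplasmic reticulum (ER) through a translocation channel, are folded there by chaperones, leave in COPII-coated vesicles and are sorted in the Golgi apparatus, from which COPI-coated vesicles return escaped ER proteins.

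Each library held 40472228 to 76815879 counts, and 12857 of 14476 genes passed the filter on low counts. Levels are in CPM, counts scaled by TMM library size. No single gene defines an induced membrane, and fibroblast and collagen genes were detected in all 8 libraries. Genes of other tissues took a variable part of the libraries. The 23 tested skeletal muscle genes made up 2.61, 4.65, 18.2 and 23.6% of the membrane libraries of rats 1 to 4 and 9.97, 17.2, 7.41 and 18.2% of the PFNU libraries. Muscle genes thus took less of the membrane than of the PFNU library in rats 1 and 2, and more in rats 3 and 4. Erythroid genes made up 0.0369 to 0.156% of IM libraries and 0.0928 to 0.464% of PFNU libraries. All 13 of them had a lower level in IM than in PFNU in every rat, where 10.2% of all genes did. Their median log2 fold change (log2FC, always IM minus PFNU) was -1.72, although none was called. B lineage genes had a median of -2.87 and neutrophil genes one of -1.76. Cartilage genes had a median of 2.06 with no call, and made up 0.0763 to 0.272% of IM libraries and 0.0445 to 0.142% of PFNU libraries. In bulk tissue, fewer cells of a type and less RNA per cell cannot be told apart.

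**Figure D1:**
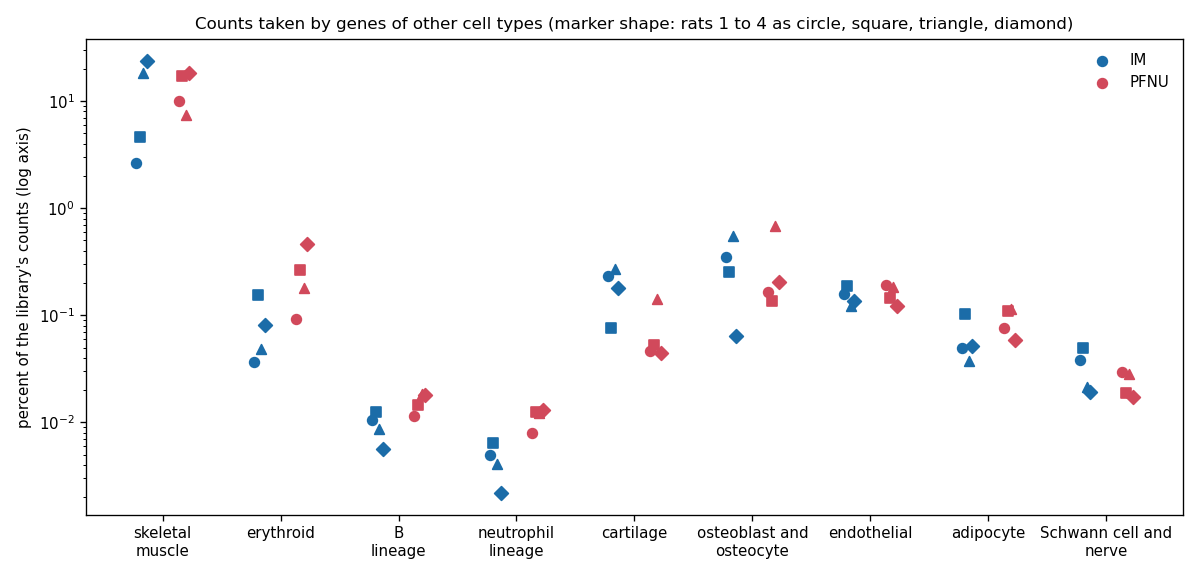
Percent of each library's counts (log axis) taken by the genes of 9 lists of other cell types, with the 4 IM libraries in blue to the left and the 4 PFNU libraries in red to the right of each list name, and the marker shape giving the rat. Muscle shares of IM run from 2.61 to 23.6% and overlap those of PFNU, while endothelial shares lie between 0.121 and 0.188% in IM and between 0.123 and 0.190% in PFNU.

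A total of 47 of 12857 genes, or 0.366%, differed between IM and PFNU at an adjusted p under 0.05 in edgeR's quasi-likelihood test with rat as a block. Of these, 10 were higher in IM (0.0778% of genes tested) and 37 were lower (0.288%). DESeq2 called 374 higher and 340 lower, a fit with the level of muscle genes as a covariate 113 higher and 74 lower, and 3 fits called 0 genes: limma-voom (1751 at an unadjusted p under 0.05), the erythroid covariate (1278) and the 8 libraries alone (1256). The median log2 fold change of all genes was -0.01. Of the 37 lower genes, 13 stand in the lists of B lineage, neutrophil and skeletal muscle genes. Without the block, 111 genes (0.863%) were called, 47 higher (0.366%) and 64 lower (0.498%), and the 47 called with the block were among them. The calls depended on single animals: 0 genes were called when all libraries of rat 2 or of rat 3 were left out (1171 and 1655 at an unadjusted p under 0.05), 11 without rat 4 and 103 without rat 1. Leaving out the membrane library of rat 1, 2, 3 or 4 gave 18, 25, 34 or 11 calls, and leaving out the PFNU library of rat 1, 2, 3 or 4 gave 99, 7, 14 or 6. In all, 3 genes (Fam129c, Chrna1 and Mcpt2) were called whichever of the 8 was left out. The IM library was above the PFNU library in all 4 rats for 11.5% of genes and below it in all 4 for 10.2%, and all IM libraries were above all PFNU libraries for 3.96% and below them for 3.31%. Fam129c, Chrna1 and Mcpt2 belong to no stromal, matrix, secretory or macrophage list.

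The genes higher in IM included secreted and membrane proteins of several kinds. Lyve1, a hyaluronan receptor of tissue macrophages and of lymphatic endothelium, stood at 50.1, 141, 92.8 and 83.8 CPM in the membranes of rats 1 to 4, against 36.8, 49.8, 25.8 and 22.4 CPM in their PFNU tissue. Every membrane was above every PFNU library, and the rat 2 membrane was the highest. The log2 fold change of Lyve1 was 1.43 (SE 0.23, adjusted p = 0.0302). Reln, which encodes the large secreted glycoprotein reelin, stood at 50.7, 14.96, 31.0 and 21.4 CPM in the membranes of rats 1 to 4, against 9.48, 6.33, 8.39 and 8.22 CPM in their PFNU tissue. All membranes exceeded all PFNU libraries here too, with rat 1 highest and rat 2 lowest among the membranes (log2FC 1.78, SE 0.31, adjusted p = 0.0373). Gap43, a growth-cone protein of regenerating axons that Schwann cells also make, stood at 12.4, 52.9, 16.04 and 13.2 CPM in the membranes of rats 1 to 4, against 5.69, 5.57, 1.56 and 4.41 CPM in their PFNU tissue. The rat 2 membrane lay far above the other membranes, and the groups did not overlap (log2FC 2.36, SE 0.40, adjusted p = 0.0368). The 13 Schwann cell and nerve genes had a median log2 fold change of -0.36 (-0.72 to -0.095 with 1 library or rat left out). The list was mixed, with 6 of the 13 positive. At an unadjusted p under 0.05, 2 were higher and 2 lower, where 8.86% of all genes were higher and 5.66% lower.

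Sbsn, suprabasin, a secreted protein best known from stratified epithelium, stood at 11.2, 33.96, 12.6 and 9.54 CPM in the membranes of rats 1 to 4, against 3.81, 5.75, 3.03 and 3.92 CPM in their PFNU tissue, again with the highest value in the rat 2 membrane (log2FC 1.91, SE 0.31, adjusted p = 0.0302). Ltc4s, the enzyme that joins glutathione to leukotriene A4 and so begins the cysteinyl leukotrienes, was low in all libraries, at 2.63, 6.36, 2.85 and 4.36 CPM in the membranes of rats 1 to 4, against 1.25, 1.03, 0.415 and 0.350 CPM in their PFNU tissue. It had the largest log2 fold change of the 10 genes called higher (log2FC 2.49, SE 0.43, adjusted p = 0.0368), and its groups did not overlap. Gas7, an actin-associated adaptor protein, stood at 323, 406, 342 and 255 CPM in the membranes of rats 1 to 4, against 231, 129.8, 149.7 and 116 CPM in their PFNU tissue. The lowest membrane (rat 4) and the highest PFNU library (rat 1) lay close together, and the membrane was above PFNU in each rat (log2FC 1.11, SE 0.20, adjusted p = 0.0409). Pepd encodes prolidase, which splits dipeptides that end in proline or hydroxyproline and so works at the end of collagen breakdown. Its level was 145, 142, 118 and 139.7 CPM in the membranes of rats 1 to 4, against 90.9, 78.7, 75.0 and 68.2 CPM in their PFNU tissue. The membranes were tightly grouped above PFNU (log2FC 0.80, SE 0.14, adjusted p = 0.0373).

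The other 3 genes called higher changed by a factor close to that of Pepd and Gas7. Yif1b, a membrane protein of the route between ER and Golgi, averaged 45.6 ± 8.41 CPM in IM and 23.6 ± 2.54 CPM in PFNU (SD, n = 4 each; log2FC 0.95, SE 0.18, adjusted p = 0.0491). Dohh, the hydroxylase that completes hypusine on the translation factor eIF5A, averaged 41.8 ± 7.14 CPM in IM and 19.8 ± 2.47 CPM in PFNU (log2FC 1.07, SE 0.20, adjusted p = 0.0491). Zfp385a, a zinc-finger protein that binds nucleic acids, averaged 60.1 ± 16.2 CPM in IM and 28.4 ± 2.93 CPM in PFNU (log2FC 1.04, SE 0.18, adjusted p = 0.0373). Dohh and Yif1b lost the call under every removal of 1 of the 8 libraries, with adjusted p between 0.0582 and 0.200 for Dohh and between 0.0584 and 0.200 for Yif1b. The remaining 8 genes kept it under 1 to 3 of the 8 removals.

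**Figure D2:**
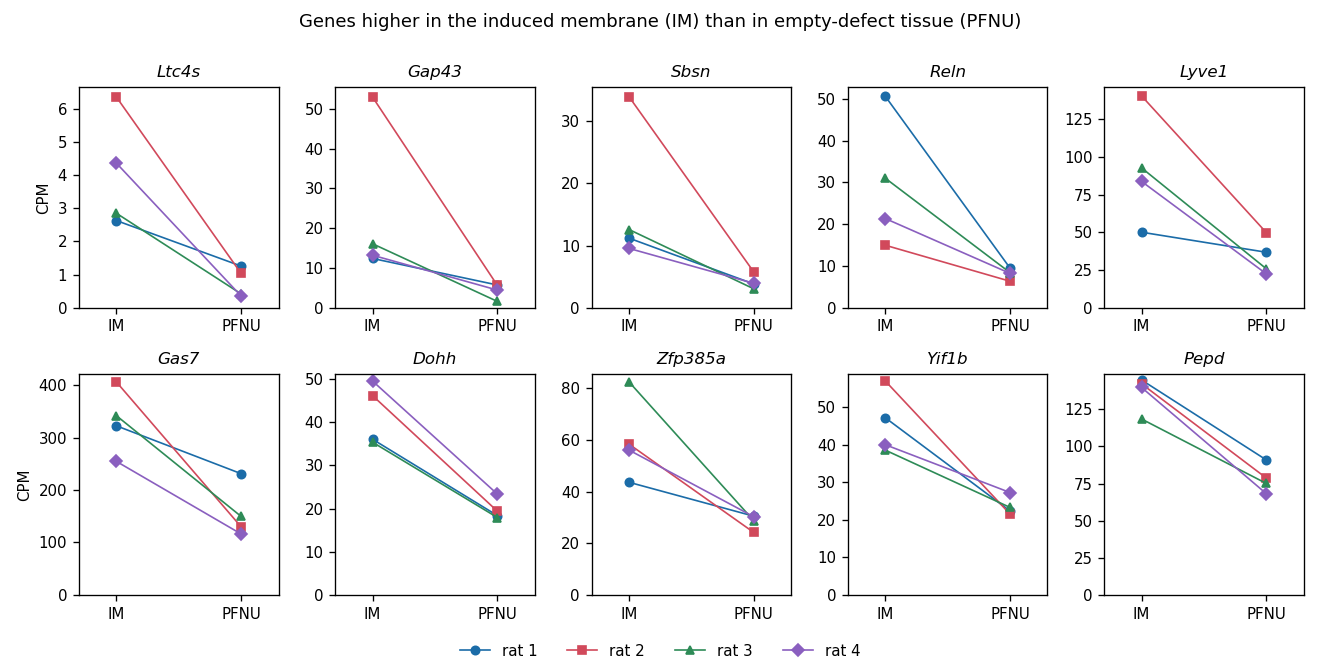
CPM (linear axes from 0) of the 10 genes called higher in IM, with a line joining the IM library (left) and the PFNU library (right) of each rat. All lines fall toward PFNU, and the rat 2 membrane stands far above the other membranes for Gap43 (52.9 CPM) and Sbsn (33.96 CPM).

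Among genes called lower outside the marrow and muscle lists were a pair of secreted regulators of skeletal growth. Nog encodes noggin, an antagonist that binds bone morphogenetic proteins (BMPs), and stood at 0.154, 0.151, 0.481 and 0.691 CPM in the membranes of rats 1 to 4, against 1.15, 2.08, 2.41 and 1.80 CPM in their PFNU tissue. Rspo3, R-spondin 3, which strengthens Wnt signals, stood at 0.173, 0.335, 0.847 and 0.276 CPM in the membranes of rats 1 to 4, against 1.36, 1.09, 2.70 and 4.06 CPM in their PFNU tissue. Both were low in all libraries and did not overlap between the groups. Their changes were -2.52 on the log2 scale for Nog (SE 0.39, adjusted p = 0.0235) and -2.44 for Rspo3 (SE 0.42, adjusted p = 0.0368). With single libraries left out, the adjusted p of Nog ran from 0.0208 to 0.0832, and that of Rspo3 from 0.0286 to 0.160.

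Other genes called lower belong to muscle, its endplate and nerve. Chrna1, the alpha subunit of the acetylcholine receptor of muscle, stood at 8.39, 15.6, 5.20 and 16.6 CPM in the membranes of rats 1 to 4, against 53.1, 62.3, 34.6 and 61.8 CPM in their PFNU tissue (log2FC -2.30, SE 0.27, adjusted p = 0.00897). Myoz2, a Z-disc protein of slow and cardiac muscle, had 14.9, 18.4, 3.74 and 18.3 CPM in the membranes and 126, 209, 98.8 and 429 CPM in PFNU (log2FC -3.99, SE 0.72, adjusted p = 0.0409). Scn1a, a voltage-gated sodium channel of neurons, averaged 1.97 ± 1.62 CPM in IM and 11.3 ± 6.51 CPM in PFNU (log2FC -2.59, SE 0.47, adjusted p = 0.0409). All membranes lay below all PFNU libraries for these 3 genes, also in rats 3 and 4, where the muscle list as a whole took more of the membrane's counts than of PFNU's. Of the 23 muscle genes, 4 were called lower (Myh7, Myl2, Tnnt1 and Tnnc1, all of slow fibres), where 0.288% of all genes were called lower. The list's median was -0.01, and -0.87 to 0.47 with 1 library or rat left out. Reads of the myosin heavy chains may be split between near-identical genes, so the value of Myh7 is uncertain. Spib, a transcription factor of B cells, fell too (log2FC -3.13, SE 0.45, adjusted p = 0.0166), as did Crym, a thyroid hormone-binding protein (log2FC -1.65, SE 0.31, adjusted p = 0.0466), and Kit, the stem cell factor receptor of mast cells and progenitors (log2FC -1.16, SE 0.22, adjusted p = 0.0491).

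Genes that mark fibroblasts stood mostly higher in IM, but none passed the test. Of 20 tested stromal genes, 19 had a positive log2 fold change, against 6269 of all 12857 genes, and the median was 0.74, against -0.01 over all genes. At an unadjusted p under 0.05, 10 of the 20 were higher and 0 lower, where 8.86% of all genes were higher and 5.66% lower. Pdgfra, the receptor that marks most connective tissue fibroblasts, stood at 238, 214, 208 and 157 CPM in the membranes of rats 1 to 4, against 158, 98.5, 191 and 90.0 CPM in their PFNU tissue. The membrane was above PFNU in each rat, but the groups overlapped (log2FC 0.66, SE 0.22, adjusted p = 0.200). Thy1, a surface glycoprotein of fibroblasts, stood at 579, 766, 305 and 201 CPM in the membranes of rats 1 to 4, against 260.1, 166, 266 and 158 CPM in their PFNU tissue, with high values in rats 1 and 2 and a smaller gap in rats 3 and 4 (log2FC 1.04, SE 0.35, adjusted p = 0.206). Mfap5, a microfibril protein of adventitial fibroblasts, had 188, 576, 219.6 and 185 CPM in the membranes and 139.5, 93.6, 92.9 and 81.1 CPM in PFNU. It did not overlap between groups, and the rat 2 membrane stood far above the other membranes (log2FC 1.33, SE 0.30, adjusted p = 0.0843). Pdpn, podoplanin, of activated and lining-layer fibroblasts, had 102, 143, 125 and 69.8 CPM in the membranes and 45.8, 42.3, 54.9 and 44.9 CPM in PFNU, also without overlap (log2FC 1.25, SE 0.32, adjusted p = 0.121). Lrrc15, a membrane protein of fibroblasts in scars, had 108, 48.1, 61.4 and 8.96 CPM in the membranes and 16.9, 10.3, 16.4 and 12.9 CPM in PFNU. In rat 4 its membrane lay below PFNU (log2FC 1.79, SE 0.53, adjusted p = 0.165). Pdgfrb, of pericytes and fibroblasts, and the mesenchymal transcription factors Twist1 and Prrx1, which were picked with their values known, had a log2FC of 0.04, 0.07 and 0.23.

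All 11 tested collagen chains had a positive log2 fold change, with a median of 0.87, and none was called. The median was 0.42 without the membrane library of rat 1. Together they made up 8.18, 3.12, 5.66 and 1.48% of the membrane libraries of rats 1 to 4 and 3.39, 1.67, 4.06 and 1.68% in PFNU. The membrane share was thus higher in rats 1, 2 and 3 and lower in rat 4. Col1a1, the main chain of type I collagen, stood at 39679.8, 14323, 46919 and 7363 CPM in the membranes of rats 1 to 4, against 13315, 8923, 23116 and 10744 CPM in their PFNU tissue (log2FC 0.87, SE 0.54, adjusted p = 0.486). Its spread between rats was as wide as the difference between the groups. Col5a3, a chain of type V collagen, which regulates fibril diameter, stood at 1436, 650.0, 501 and 334 CPM in the membranes of rats 1 to 4, against 282, 237, 193 and 163 CPM in their PFNU tissue. The lowest membrane was above the highest PFNU library (log2FC 1.67, SE 0.39, adjusted p = 0.0919). Col5a1, another type V chain (log2FC 1.11, SE 0.47, adjusted p = 0.306), and Col16a1, a fibril-associated chain (log2FC 1.08, SE 0.44, adjusted p = 0.287), were higher in the membrane in each rat, with overlapping groups.

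The enzymes that modify, fold and trim procollagen had a median log2 fold change of 0.69 over 22 genes, with none called. Without the membrane library of rat 1 it was 0.32, with the muscle covariate 0.32 and with the erythroid covariate 0.10. The membrane was above PFNU in all 4 rats for 15 of them, against 11.5% of all genes. No gene of the list was free of overlap. Among all genes, all membranes were above all PFNU libraries for 3.96% and below them for 3.31%. Serpinh1, the collagen chaperone HSP47, stood at 1916, 1638, 1468 and 861 CPM in the membranes of rats 1 to 4, against 829, 576, 868 and 576 CPM in their PFNU tissue. The membranes of rats 1 to 3 were above all PFNU libraries, and that of rat 4 was below the rat 3 PFNU value (log2FC 1.06, SE 0.31, adjusted p = 0.155). Adamts2, which removes the amino-terminal propeptide, had 191, 61.4, 177 and 86.8 CPM in the membranes and 75.4, 43.4, 81.8 and 44.5 CPM in PFNU (log2FC 1.03, SE 0.30, adjusted p = 0.158). Pcolce, an enhancer of carboxy-terminal propeptide cleavage, had 1009, 733, 716 and 434 CPM in the membranes and 487, 273, 514 and 280.4 CPM in PFNU (log2FC 0.92, SE 0.31, adjusted p = 0.208). P4ha3, a prolyl hydroxylase subunit, ranged widely, at 65.3, 36.8, 27.7 and 5.31 CPM in the membranes and 19.5, 8.74, 25.5 and 9.17 CPM in PFNU, and in rat 4 the membrane was the lower of the pair (log2FC 0.96, SE 0.57, adjusted p = 0.467).

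Elastic fibre genes held some of the most even differences between rats. None of the 19 was called. Their median log2 fold change was 0.66, and the medians within rats 1 to 4 were 0.77, 1.11, 0.82 and 0.71. Fbn1, fibrillin-1, the backbone of microfibrils, stood at 1091, 1508, 1205 and 1083 CPM in the membranes of rats 1 to 4, against 733, 427, 526 and 357 CPM in their PFNU tissue. Every membrane was above every PFNU library, and the gene missed the threshold narrowly with the block (log2FC 1.26, SE 0.25, adjusted p = 0.0507) and passed it without (adjusted p = 0.0254). Loxl1, a lysyl oxidase that crosslinks elastin, stood at 439.5, 391, 306 and 235 CPM in the membranes of rats 1 to 4, against 194, 94.2, 149.7 and 98.4 CPM in their PFNU tissue. It too did not overlap, and was called only without the block (log2FC 1.35, SE 0.28, adjusted p = 0.0648, and adjusted p = 0.0349 without the block). With the level of erythroid genes as a covariate, the median of the list was 0.19.

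The synthesis of glycosaminoglycans, the long sugar chains of proteoglycans and hyaluronan, was represented by 34 genes with a median log2 fold change of 0.45 and no call. That median was 0.22 without the membrane library of rat 1, 0.13 with the muscle covariate and 0.12 with the erythroid covariate. The members higher in IM stood at several steps of the route and the list was not uniform, since 8 of the 34 had a negative value. Gfpt2, which makes glucosamine 6-phosphate at the head of the hexosamine pathway, stood at 90.0, 192, 77.2 and 63.1 CPM in the membranes of rats 1 to 4, against 46.1, 24.8, 22.5 and 21.1 CPM in their PFNU tissue. Each membrane was above each PFNU library, and the rat 1 PFNU value stood apart from the other 3 (log2FC 1.79, SE 0.36, adjusted p = 0.0556, and adjusted p = 0.0299 without the block). Chpf, a chondroitin polymerising factor, stood at 234, 263, 115 and 79.2 CPM in the membranes of rats 1 to 4, against 57.5, 38.7, 63.8 and 44.1 CPM in their PFNU tissue, with larger gaps in rats 1 and 2 than in rats 3 and 4 (log2FC 1.70, SE 0.37, adjusted p = 0.0766, and adjusted p = 0.0323 without the block). B3gat3, which finishes the linker that joins the chain to its protein, had 64.9, 92.7, 72.1 and 87.8 CPM in the membranes and 50.2, 43.4, 46.7 and 48.3 CPM in PFNU (log2FC 0.74, SE 0.16, adjusted p = 0.0787, and adjusted p = 0.0370 without the block). Has1, a hyaluronan synthase, had 14.05, 7.23, 5.05 and 1.70 CPM in the membranes and 3.50, 0.954, 0.810 and 0.467 CPM in PFNU, with a large standard error (log2FC 2.35, SE 0.67, adjusted p = 0.149). Uap1 and Pgm3, which lie downstream of Gfpt2 in the hexosamine pathway and were picked with their values known, had a log2FC of 1.04 and 0.94, while Gfpt1, the paralog of Gfpt2, had 0.12.

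Proteoglycans and matricellular proteins, which organise fibrils and tune how cells grip the matrix, were alike in sign. All 27 tested members had a positive log2 fold change, with a median of 0.81, and 1 of them, Reln, was called. At an unadjusted p under 0.05, 13 of the 27 were higher, where 8.86% of all genes were. Over all genes, 0.0778% were called higher. Tgfbi, an adhesive matrix protein induced by transforming growth factor beta, stood at 1265, 921, 376 and 359.9 CPM in the membranes of rats 1 to 4, against 270.3, 204, 193 and 146 CPM in their PFNU tissue. All membranes were above all PFNU libraries, by a wide margin in rats 1 and 2 (log2FC 1.77, SE 0.40, adjusted p = 0.0849, and adjusted p = 0.0385 without the block). Fn1, fibronectin, stood at 22169, 9921, 7048 and 4634 CPM in the membranes of rats 1 to 4, against 3593, 2485, 3339 and 1809 CPM in their PFNU tissue. The groups did not overlap, and the rat 1 membrane was far above the other membranes (log2FC 1.91, SE 0.56, adjusted p = 0.158). Spon2, the secreted matrix protein mindin, had 46.5, 88.0, 60.6 and 88.7 CPM in the membranes and 38.8, 33.7, 23.4 and 35.8 CPM in PFNU (log2FC 1.05, SE 0.24, adjusted p = 0.0900). The list made up 7.09, 5.84, 3.27 and 1.53% of the membrane libraries of rats 1 to 4 and 2.54, 1.48, 3.21 and 1.41% of the PFNU libraries. In rats 3 and 4 the shares of the pair were close to each other.

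**Figure D3:**
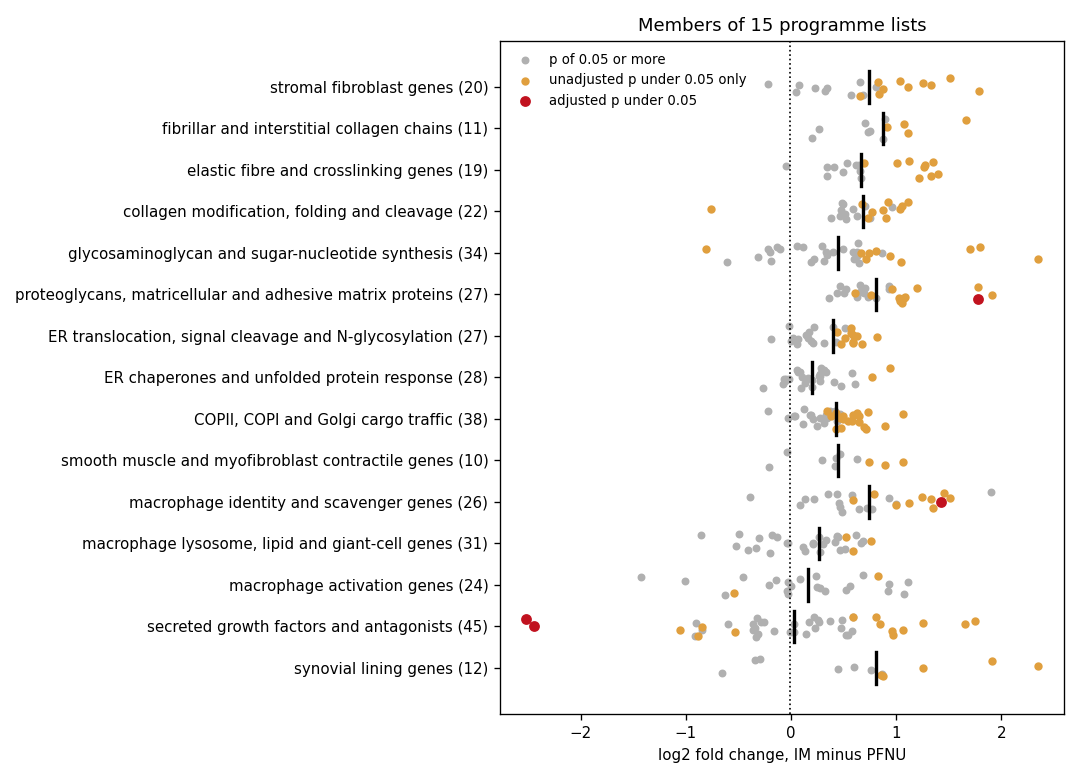
Log2 fold change (IM minus PFNU) of each tested member of 15 programme lists, with the number of members in brackets, a black bar at each list's median and a dotted line at the median of all genes (-0.01). Members past adjusted p of 0.05 are red, those past unadjusted p of 0.05 only are orange, and the medians run from 0.03 for growth factors to 0.87 for collagen chains.

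Synovial lining genes were examined because a membrane around cement can form a lining layer. Their median was 0.81 over 12 genes, with 5 higher at an unadjusted p under 0.05, where 8.86% of all genes were, and none called. The leading members, Pdpn, Has1 and Fn1, also stand in the stromal or matrix lists. Prg4, which encodes lubricin, the lubricant of joint surfaces, and was chosen after its values were seen, had 256, 72.5, 97.9 and 107 CPM in the membranes and 90.9, 125, 38.02 and 94.6 CPM in PFNU. Its groups overlapped (log2FC 0.76, SE 0.43, adjusted p = 0.445). Clic5 and Vcam1, other genes of the lining layer chosen in the same way, had values of -0.65 and -0.29.

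The parts of the secretory route differed in their medians. COPII, COPI and Golgi genes had a median log2 fold change of 0.43 over 38 genes, of which 36 were positive and 19 were higher at an unadjusted p under 0.05. At that threshold 8.86% of all genes were higher. All membranes were above all PFNU libraries for 12 of the 38, where 3.96% of all genes had that pattern, and none was called. Genes of translocation, signal cleavage and N-glycosylation had a median of 0.40 over 27 genes, with 11 higher at an unadjusted p under 0.05, 5 free of overlap and none called. Their median was 0.20 without the membrane library of rat 2. ER chaperones and genes of the unfolded protein response had a median of 0.20 over 28 genes, with 2 higher at an unadjusted p under 0.05, none free of overlap and none called, and a median of 0.12 without that library. Their share at that threshold was no larger than the 8.86% of all genes.

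Cope, a subunit of the COPI coat, stood at 56.7, 80.8, 44.3 and 57.2 CPM in the membranes of rats 1 to 4, against 35.2, 35.7, 34.5 and 37.2 CPM in their PFNU tissue. Copg1, another subunit of that coat, stood at 215, 222, 180.0 and 184 CPM in the membranes of rats 1 to 4, against 134, 118, 142 and 126 CPM in their PFNU tissue. Within each gene all membranes were above all PFNU libraries (log2FC 0.73, SE 0.18, adjusted p = 0.104 for Cope and log2FC 0.63, SE 0.16, adjusted p = 0.1097 for Copg1). Gorasp2, which holds Golgi stacks together, had 144, 134, 145 and 144 CPM in the membranes and 104, 103, 106 and 108 CPM in PFNU. The differences were small and the spread within groups was smaller (log2FC 0.43, SE 0.13, adjusted p = 0.161). Srprb, which anchors the receptor for the signal recognition particle in the ER membrane, had 38.8, 43.3, 40.8 and 44.0 CPM in the membranes and 24.8, 29.9, 27.8 and 28.3 CPM in PFNU (log2FC 0.59, SE 0.13, adjusted p = 0.0696). Rpn1, a subunit of the enzyme that adds N-linked glycans, had 338, 434, 335 and 361 CPM in the membranes and 248, 269, 283 and 255 CPM in PFNU (log2FC 0.48, SE 0.15, adjusted p = 0.191). Dad1, of the same complex, had 107, 172, 84.6 and 91.6 CPM in the membranes and 74.0, 72.8, 76.6 and 75.1 CPM in PFNU (log2FC 0.59, SE 0.21, adjusted p = 0.229).

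The chaperones behaved unevenly from rat to rat. Hspa5, the chaperone BiP and the usual gauge of the unfolded protein response, stood at 579.7, 731, 560.1 and 390.4 CPM in the membranes of rats 1 to 4, against 543, 392, 628 and 436 CPM in their PFNU tissue. The membrane was the higher of the pair in rats 1 and 2 and the lower in rats 3 and 4 (log2FC 0.20, SE 0.25, adjusted p = 0.771). Pdia4, a disulfide isomerase, had 232, 343, 181 and 145 CPM in the membranes and 156, 104, 169.6 and 101 CPM in PFNU (log2FC 0.77, SE 0.29, adjusted p = 0.250), and Calr, calreticulin, had 1138, 1731, 991 and 807 CPM in the membranes and 874, 582, 932 and 659.7 CPM in PFNU (log2FC 0.61, SE 0.28, adjusted p = 0.347). Creb3l1, a membrane-bound transcription factor of collagen-secreting cells that acts on secretory genes, had 168, 64.9, 202 and 44.9 CPM in the membranes and 70.6, 46.8, 76.0 and 39.7 CPM in PFNU. Its values were high in rats 1 and 3 of both groups and low in rats 2 and 4 (log2FC 0.94, SE 0.36, adjusted p = 0.268). Sec24d, a COPII subunit used for procollagen, was on the list but was not tested here.

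The start regions of secretory genes were read to see which carry the letters of known ER stress elements, since the chaperones and the traffic genes differed in median. Promoter windows of 300 bases, from 250 before to 50 after each gene's start, came from RefSeq on build GRCr8, which is not the build of the counts. They were matched by symbol for 9556 of 12857 genes tested. The ER stress element, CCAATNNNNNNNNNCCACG, was searched on both strands and occurred in 7 of 21 chaperone windows (33.3%), in 0 of 33 traffic windows and in 15 of the 9556 windows (0.157%). The motif TGACGTG, a core of sites that unfolded protein response factors bind, was searched on both strands and occurred in 9 of 33 traffic windows (27.3%), in 3 of 21 chaperone windows (14.3%) and in 222 of the 9556 (2.32%). It overlaps the last letters of the stress element only where CCACG is followed by TCA. Below are 2 traffic genes and 2 chaperone or response genes, with the match in capitals as it reads on the gene's own strand. Sec23a (COPII coat) and Kdelr3 (retrieval of ER proteins) hold TGACGTG, on the opposite strand in Kdelr3. Calr and Xbp1, the central transcription factor of the response, hold the stress element, on the opposite strand in Calr. The windows lie at chr6:82440855-82441154 (minus strand), chr7:112959382-112959681 (plus), chr19:40213117-40213416 (plus) and chr14:84604373-84604672 (plus).
Sec23a: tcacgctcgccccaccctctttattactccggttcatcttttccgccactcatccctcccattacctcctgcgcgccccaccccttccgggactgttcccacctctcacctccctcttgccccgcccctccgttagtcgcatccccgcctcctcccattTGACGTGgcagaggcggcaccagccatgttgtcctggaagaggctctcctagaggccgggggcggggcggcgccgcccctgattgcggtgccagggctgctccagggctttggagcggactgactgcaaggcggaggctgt
Kdelr3: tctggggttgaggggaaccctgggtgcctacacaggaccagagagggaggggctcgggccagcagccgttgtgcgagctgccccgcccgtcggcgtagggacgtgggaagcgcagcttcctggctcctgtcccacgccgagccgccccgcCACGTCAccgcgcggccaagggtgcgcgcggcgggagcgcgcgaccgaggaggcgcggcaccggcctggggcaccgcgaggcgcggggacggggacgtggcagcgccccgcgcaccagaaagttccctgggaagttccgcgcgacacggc
Calr: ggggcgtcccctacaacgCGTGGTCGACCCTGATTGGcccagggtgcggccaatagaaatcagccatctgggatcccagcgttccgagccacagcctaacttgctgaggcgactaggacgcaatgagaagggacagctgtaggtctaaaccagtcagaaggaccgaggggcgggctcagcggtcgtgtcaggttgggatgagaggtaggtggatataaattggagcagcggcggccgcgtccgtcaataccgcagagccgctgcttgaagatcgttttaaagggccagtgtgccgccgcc
Xbp1: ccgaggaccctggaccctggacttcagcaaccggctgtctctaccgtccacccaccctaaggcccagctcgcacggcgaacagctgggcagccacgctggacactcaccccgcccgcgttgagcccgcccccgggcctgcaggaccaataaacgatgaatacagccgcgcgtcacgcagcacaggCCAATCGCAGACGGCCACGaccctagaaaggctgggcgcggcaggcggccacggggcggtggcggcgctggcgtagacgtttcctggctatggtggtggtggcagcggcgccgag

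Medians were close between genes with and without these letters. The 7 chaperone genes with the stress element had log2 fold changes between 0.09 and 0.61 and a median of 0.20, and the 14 without had a median of 0.18. The 9 traffic genes with TGACGTG had a median of 0.38, and the 24 without had 0.44. Sec23a stood at 102, 140.3, 118 and 139 CPM in the membranes of rats 1 to 4, against 86.1, 97.0, 90.0 and 96.3 CPM in their PFNU tissue, without overlap (log2FC 0.43, SE 0.13, adjusted p = 0.179), and Kdelr3 at 149, 214, 118 and 63.6 CPM in the membranes of rats 1 to 4, against 71.0, 50.1, 89.7 and 53.6 CPM in their PFNU tissue (log2FC 1.06, SE 0.36, adjusted p = 0.212). Xbp1 had 182, 186, 172 and 169.6 CPM in the membranes and 165, 149, 173 and 151 CPM in PFNU (log2FC 0.16, SE 0.16, adjusted p = 0.699). Sec23a, Kdelr3 and Xbp1 were chosen after their values were seen. A match of letters is a description of the window, and no binding was measured.

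Macrophage genes differed in their medians by role. The 26 identity and scavenger genes had a median log2 fold change of 0.74, with 25 positive and 10 higher at an unadjusted p under 0.05, and 1 of them, Lyve1, was called. The 31 lysosome, lipid and giant-cell genes had a median of 0.26, with 3 higher at an unadjusted p under 0.05 and none called. The 24 activation genes had a median of 0.16, with 1 higher, 1 lower and none called. Over all genes, 8.86% were higher and 5.66% lower at that threshold, and 0.0778% were called higher. The lysosome count was close to the share of all genes. Within rats 1 to 4 the identity medians were 0.60, 1.58, -0.08 and 0.58, so rat 2 led and rat 3 was near 0. Leaving out the membrane library of rat 1 gave a median of 0.49 for identity genes and 0.07 for lysosome genes, and the activation median ran from -0.09 to 0.63 with 1 library or rat left out. The list made up 0.954, 0.918, 0.350 and 0.220% of the counts in IM and 0.476, 0.250, 0.571 and 0.199% in PFNU.

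C1qb, a chain of the complement starter C1q, which tissue macrophages secrete, stood at 298, 500.3, 272 and 294 CPM in the membranes of rats 1 to 4, against 244, 135, 165 and 98.5 CPM in their PFNU tissue. All membranes were above all PFNU libraries (log2FC 1.12, SE 0.25, adjusted p = 0.0843). C1qc, another chain, stood at 245, 566, 319 and 375 CPM in the membranes of rats 1 to 4, against 256, 125, 144 and 91.9 CPM in their PFNU tissue. In rat 1 its membrane was slightly below PFNU (log2FC 1.33, SE 0.32, adjusted p = 0.0986). Csf1r, the receptor that macrophages need to survive, stood at 692, 428, 508 and 375 CPM in the membranes of rats 1 to 4, against 313, 217, 466 and 207 CPM in their PFNU tissue, and the membrane was higher within each rat although the groups overlapped (log2FC 0.79, SE 0.25, adjusted p = 0.184). Cd68, a lysosomal glycoprotein used as a general macrophage stain, stood at 377, 343, 314 and 112 CPM in the membranes of rats 1 to 4, against 259, 124, 360.5 and 130.0 CPM in their PFNU tissue. Its membrane was higher in rats 1 and 2 and lower in rats 3 and 4 (log2FC 0.44, SE 0.36, adjusted p = 0.620). Mrc1, the mannose receptor, stood at 272, 484, 195 and 182 CPM in the membranes of rats 1 to 4, against 264, 181, 350.0 and 116 CPM in their PFNU tissue and had no direction shared by all rats (log2FC 0.35, SE 0.36, adjusted p = 0.707). The log2 fold changes of Lyve1 and the C1q chains were larger than those of Cd68 and Mrc1, and the difference between those genes was not tested.

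Lymphatic endothelium also expresses Lyve1 and Reln, so some of its other markers, chosen after their values were seen, are given beside them. Pdpn, given above with the stromal genes, is made by that endothelium too. It was higher in the membrane in each rat, without overlap (log2FC 1.25, SE 0.32, adjusted p = 0.121). Prox1, the transcription factor that sets lymphatic identity, had 0.211, 0.485, 7.01 and 4.50 CPM in the membranes and 1.23, 1.87, 2.04 and 4.01 CPM in PFNU (log2FC 0.20, SE 1.08, adjusted p = 0.958). Flt4, the receptor of vascular endothelial growth factor C, had 12.5, 3.26, 24.98 and 16.2 CPM in the membranes and 14.02, 10.7, 11.3 and 13.7 CPM in PFNU (log2FC 0.12, SE 0.43, adjusted p = 0.929). Ccl21, a chemokine of lymphatic vessels and lymphoid stroma, had 19.3, 82.0, 253 and 348 CPM in the membranes and 39.6, 26.5, 21.4 and 40.2 CPM in PFNU (log2FC 2.30, SE 0.79, adjusted p = 0.218). In CPM, Prox1, Flt4 and Ccl21 were highest in the membranes of rats 3 and 4. Lyve1 and Pdpn were highest in the rat 2 membrane and Reln in that of rat 1. Paired within rats 1 to 4, the log2 difference of Lyve1 was 0.446, 1.496, 1.85 and 1.90, so largest in rats 3 and 4. That of Pdpn was 1.16, 1.76, 1.19 and 0.638, and that of Reln 2.41, 1.24, 1.88 and 1.37. For Ccl21 the membrane was below PFNU in rat 1 and above it in rats 2 to 4. The macrophage identity median was 0.60, 1.58, -0.08 and 0.58 in rats 1 to 4. Blood vessel genes had a median of 0.02 over 14 genes with none called. The part of lymphatic cells in the Lyve1 and Reln differences was not tested.

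Of the lysosome, lipid and giant-cell list, Lamp1, Ctsb and Gpnmb were named, and they did not share a direction. Lamp1, a lysosomal membrane protein, stood at 857, 975, 737 and 964 CPM in the membranes of rats 1 to 4, against 639, 611, 618 and 572 CPM in their PFNU tissue, without overlap (log2FC 0.53, SE 0.17, adjusted p = 0.186). Ctsb, the protease cathepsin B, had 3422, 4291, 2109 and 1743 CPM in the membranes and 2041, 1308, 2330.1 and 1105 CPM in PFNU (log2FC 0.76, SE 0.33, adjusted p = 0.312). Gpnmb, a marker of lipid-laden and foreign-body macrophages, stood at 1950.4, 1373, 676 and 389 CPM in the membranes of rats 1 to 4, against 1524, 629.9, 2765 and 762 CPM in their PFNU tissue. Rats 1 and 2 had the higher value in the membrane, and rats 3 and 4 in PFNU (log2FC -0.33, SE 0.56, adjusted p = 0.839). Of the activation genes, Socs3, a feedback inhibitor of cytokine signals, had 37.4, 13.5, 22.5 and 8.09 CPM in the membranes and 15.3, 9.13, 8.68 and 9.29 CPM in PFNU (log2FC 0.83, SE 0.36, adjusted p = 0.314), and Irf4, a transcription factor of alternatively activated macrophages and lymphocytes, had 8.50, 11.2, 10.9 and 9.73 CPM in the membranes and 13.2, 13.6, 16.4 and 16.04 CPM in PFNU (log2FC -0.54, SE 0.23, adjusted p = 0.312). Cxcl10, an interferon-induced chemokine, was high in the PFNU library of rat 1 alone, at 9.04, 17.6, 32.3 and 5.19 CPM in the membranes and 173, 28.1, 12.6 and 18.4 CPM in PFNU (log2FC -1.42, SE 0.78, adjusted p = 0.425).

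**Figure D4:**
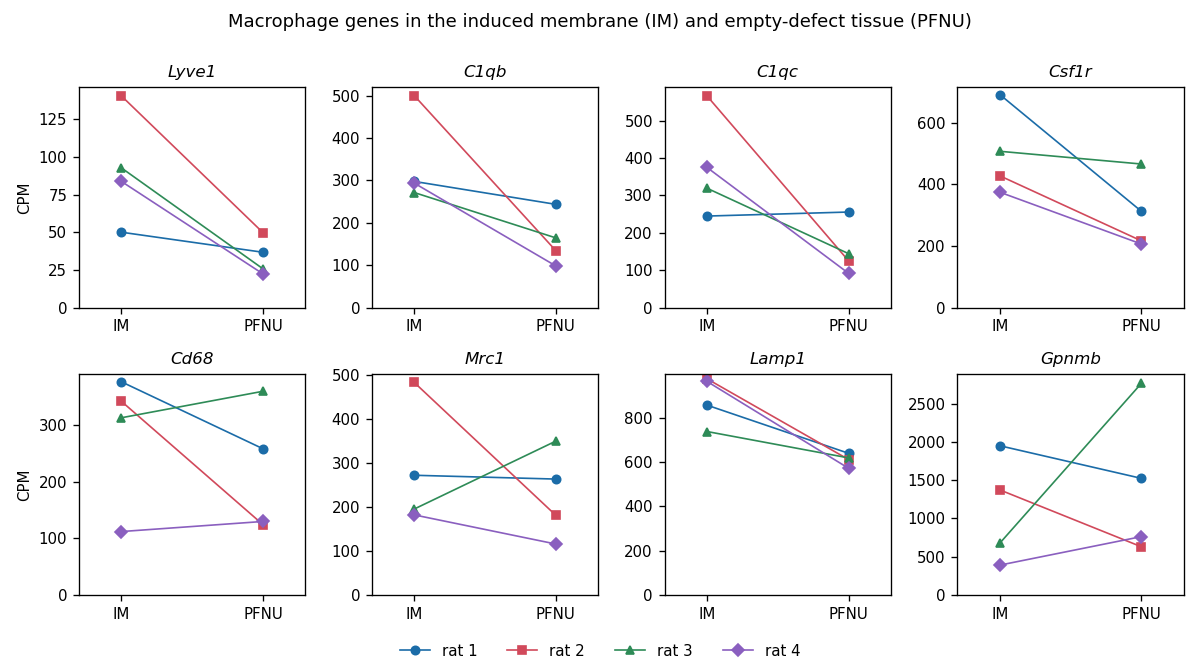
CPM (linear axes from 0) of 8 macrophage genes, with a line joining the IM library (left) and the PFNU library (right) of each rat. Lyve1 and C1qb fall toward PFNU in all 4 rats, while lines of Cd68, Mrc1 and Gpnmb cross, with Gpnmb at 2765 CPM in the PFNU library of rat 3.

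Contractile genes of smooth muscle and myofibroblasts had a median log2 fold change of 0.45 over 10 genes and none was called. Acta2, smooth muscle actin, the standard myofibroblast marker, stood at 654, 679, 368 and 699 CPM in the membranes of rats 1 to 4, against 573, 367, 389 and 349 CPM in their PFNU tissue. The groups overlapped and the rat 3 membrane stood below the other membranes (log2FC 0.47, SE 0.36, adjusted p = 0.594). Tagln, an actin-binding protein of the same cells, had 720.1, 1385, 390.1 and 675 CPM in the membranes and 455, 311, 329 and 289 CPM in PFNU and was higher in the membrane in each rat (log2FC 1.06, SE 0.39, adjusted p = 0.237). Myl9, a myosin light chain, had 238, 572, 163 and 376 CPM in the membranes and 232, 185, 168 and 165 CPM in PFNU (log2FC 0.74, SE 0.32, adjusted p = 0.309), and Actg2, enteric smooth muscle actin, had 60.9, 126, 26.5 and 87.1 CPM in the membranes and 57.7, 34.7, 27.6 and 25.6 CPM in PFNU (log2FC 0.89, SE 0.40, adjusted p = 0.335). In rats 1 and 3 the values of Myl9 and Actg2 were almost equal in the pair, and the membrane was the higher in rats 2 and 4. The median of the list was 0.73 without the membrane library of rat 1, 0.79 without the PFNU library of rat 1 and 0.23 without rat 4.

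Secreted growth factors and their antagonists did not share a direction. The median of 45 genes was 0.03, with 9 higher and 6 lower at an unadjusted p under 0.05, and the called genes were Nog and Rspo3, both lower. Over all genes, 8.86% were higher and 5.66% lower at that threshold, and 0.288% were called lower. Nbl1, an antagonist of BMPs, stood at 319, 521, 322 and 359 CPM in the membranes of rats 1 to 4, against 187, 129, 136 and 154 CPM in their PFNU tissue, without overlap, and was called only without the block (log2FC 1.26, SE 0.27, adjusted p = 0.0736, and adjusted p = 0.0482 without the block). The BMP antagonists Nbl1 and Nog thus lay in opposite directions. Tgfb1, which drives fibroblasts to make matrix, had 169, 64.9, 105 and 75.8 CPM in the membranes and 81.9, 54.9, 96.6 and 60.2 CPM in PFNU (log2FC 0.48, SE 0.25, adjusted p = 0.395). The following were chosen after their values were seen: Bmp2, which induces bone, had 2.25, 1.09, 5.87 and 2.67 CPM in the membranes and 3.81, 5.22, 7.68 and 6.14 CPM in PFNU (log2FC -1.06, SE 0.32, adjusted p = 0.173). Vegfa, the main driver of vessel growth, had 114, 35.6, 277 and 138 CPM in the membranes and 196, 333, 141 and 355 CPM in PFNU; the membrane was the lower of the pair in 3 of the 4 rats (log2FC -0.91, SE 0.48, adjusted p = 0.413). Igf1, a growth factor of mesenchyme and macrophages, had 157, 341, 142 and 104 CPM in the membranes and 116, 75.0, 123 and 50.7 CPM in PFNU (log2FC 0.96, SE 0.30, adjusted p = 0.181), and Pdgfc, a ligand of the Pdgfra receptor, had 16.9, 12.4, 12.5 and 8.53 CPM in the membranes and 6.40, 7.17, 7.87 and 6.35 CPM in PFNU, without overlap (log2FC 0.85, SE 0.21, adjusted p = 0.111).

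The size of most programme differences varied by rat, and in some lists the variation lay beside the muscle content of the libraries. In rats 1 and 2 the membrane held less muscle RNA than PFNU, and in rats 3 and 4 more. The stromal median was 0.59, 1.38, 0.20 and 0.50 in rats 1 to 4, the proteoglycan and matricellular median 1.08, 1.41, 0.40 and 0.42, and the Golgi traffic median 0.42, 0.69, 0.15 and 0.29. Each of these 3 lists had its higher medians in rats 1 and 2 and its lowest in rat 3. Other lists did not follow that order. The contractile median was -0.40, 1.01, 0.02 and 1.09 in rats 1 to 4. The elastic fibre median was 0.77, 1.11, 0.82 and 0.71, and the growth factor median 0.01, 0.25, 0.13 and 0.01. With the level of muscle genes as a covariate the medians were 0.39 for the stromal list, 0.37 for proteoglycans and matricellular proteins, 0.25 for Golgi traffic, 0.08 for translocation and 0.15 for macrophage identity. The elastic fibre median was 0.74 in that fit and the collagen chain median 0.67. The erythroid covariate gave 0.10 for collagen chains, 0.48 for the stromal list, 0.53 for macrophage identity and 0.32 for Golgi traffic. Each covariate had 1 slope fitted over all 16 libraries, bone included. Erythroid genes took 0.464 to 8.33% of the bone libraries and 0.0369 to 0.464% of the IM and PFNU libraries. They were also lower in IM than in PFNU in every rat, so the erythroid covariate is not separate from the comparison. The part of muscle and blood in the programme differences is thus described by these values only, and beyond them was not tested.

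**Figure D5:**
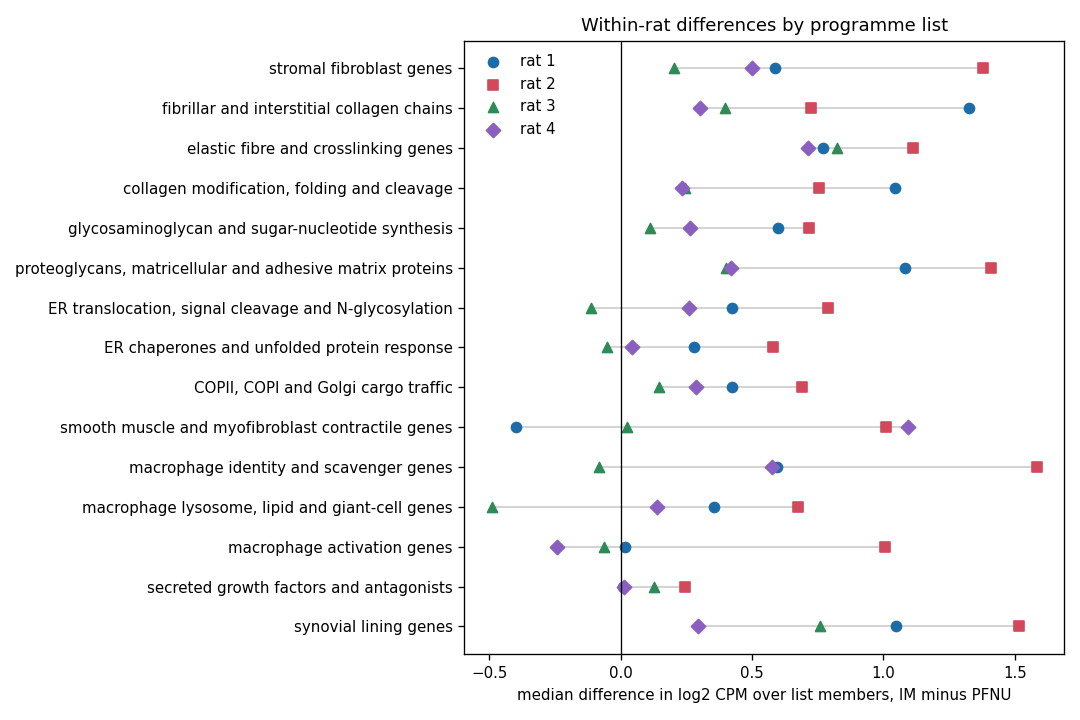
Median over list members of the within-rat difference in log2 CPM (IM minus PFNU) for 15 programme lists, with 1 point per rat and a grey line spanning the rats. Points of rat 2 lie farthest to the right for most lists, with 1.58 for macrophage identity, and points of rat 3 reach -0.49 for the macrophage lysosome list.

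The same spacer was compared with the same empty defect in neighbouring bone, to see where defect tissue stood apart. In bone, 308 genes (2.4%) were called higher and 146 (1.14%) lower beside the spacer than beside the empty defect. No gene passed the test of the difference between the change in defect tissue and the change in bone (0% of 12857 genes in edgeR, with 1263 at an unadjusted p under 0.05; DESeq2 called 259 and limma-voom 20). Gas7 came nearest among the named genes: it rose in IM, and in bone it fell, at 74.3 ± 12.4 CPM in bone by the spacer and 142 ± 16.1 CPM in bone by the empty defect (SD, n = 4 each; log2 fold change -0.94, adjusted p = 0.0356; difference of the changes 2.05, adjusted p = 0.0655). In bone Lyve1 averaged 22.0 ± 4.37 CPM by the spacer and 19.4 ± 2.60 CPM by the empty defect, a log2 fold change of 0.16 (adjusted p = 0.691; difference of the changes 1.27, adjusted p = 0.246). For Nog the change was 0.64 in bone (adjusted p = 0.279; difference -3.16, adjusted p = 0.139), and for Reln it was -0.36 (adjusted p = 0.480; difference 2.14, adjusted p = 0.190).

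Some genes lay on the same side in both tissues. Of genes called higher in IM, Sbsn was called higher in bone too (log2 fold change 1.499, adjusted p = 0.0337), as was Yif1b (0.80, adjusted p = 0.0400). Of genes called lower in IM, several of B cells and marrow were called lower in bone too. Among them were Fam129c (-1.86, adjusted p = 0.0333), Spib (-2.04, adjusted p = 0.0339) and Cd79b (-1.81, adjusted p = 0.0388). Others were not called in bone, such as Chrna1 (-0.21, adjusted p = 0.637). The median of the macrophage identity list was 0.74 in defect tissue and 0.09 in bone, that of the stromal list 0.74 and 0.85, and that of the collagen chains 0.87 and 1.70. In bone 6 of the 11 collagen chains were called higher, where 2.4% of all genes were. None was called in defect tissue, where 0.0778% of all genes were called higher. The growth factor median was 0.03 in defect tissue and 0.63 in bone, where 8 of 45 were called higher, against 2.4% of all genes. The differences between these list medians were not tested.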

How the data were processed

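RNA-seq was made from 16 tissue samples of 4 rats, and 8 of them (IM and PFNU) carry this comparison. Per the labels' protocols, RNA was extracted with Trizol, and poly-A RNA went into a stranded TruSeq preparation read from both ends. The submitters' processing notes list Bowtie2 2.2.1, TopHat2 2.0.13, FastQC 0.11.3, DESeq2 and build rn5. Which program counted reads, with which annotation and strand setting, is not given in the sources used here. What the authors deposited are raw counts in whole numbers for each gene symbol. Since the strand setting is unknown, reads of overlapping or antisense partners cannot be separated, and near-identical genes (globins, myosin heavy chains, mast cell proteases) are uncertain. No genome of that build was used, so genes are given by symbol.

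Samples were grouped and tied to a rat by their own labels. Genes with low counts were removed (filterByExpr in edgeR 4.0.16, R 4.3.3, count minimum 10), libraries were scaled by TMM, and 1 model of group means with rat as a block was fitted to all 16 libraries, with 9 residual degrees of freedom. The contrast IM minus PFNU was tested with the quasi-likelihood F-test, adjusted by Benjamini-Hochberg over 12857 genes, with a call where that value was under 0.05. Adjusted p-values in the text come from it unless a different tool is stated. CPM are TMM-scaled, the SE is the log2 fold change divided by the square root of F, and within-rat differences use log2 CPM with a prior count of 2. The pairing comes from the labels, which give the rat of each library. Deviations of IM and PFNU libraries of the same rat correlated at 0.27, -0.07, -0.07 and 0.50 in rats 1 to 4. With 4 pairs, an exact test of a single value cannot give a two-sided p below 0.125.

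The members and the 24 gene lists (15 of programmes, 9 of other cell types; 502 of 567 entries tested) were chosen with earlier results of these data known, so their counts and medians are descriptions, given beside those of all genes, and no list was tested. Named genes were a panel of 20 (19 in the table), every called programme gene, the 3 smallest p in each programme list and the 2 smallest in each other list, and up to 10 called genes per direction with the largest change, at least 5 CPM on average and no place in the lists of other cells. Others, Ltc4s among them, were chosen after their values were seen. The rule also named 2 genes that are not reported here.

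Libraries of a group were compared before averaging. Chi-square per degree of freedom was 629 to 2710 between membranes and 80.6 to 707 between PFNU libraries, above what counting error alone gives. Log2 CPM correlated at 0.907 to 0.963 between membranes and at 0.959 to 0.981 between PFNU libraries. All libraries were kept, and the membranes were less alike than the PFNU libraries. Reads were amplified by PCR with no molecular identifiers, which means that total counts bound only the counting error. The spread between rats sets the precision. On simulated counts (12722 genes), the test recovered 19% of 100 genes changed 2-fold and 74% of 100 changed 4-fold in this contrast, with 2 false calls. The simulation drew each gene independently, without shifts in tissue content shared by many genes. Its false calls therefore do not measure those in the real libraries. Alternatives were DESeq2 1.42.0, limma 3.58.1 (voom with quality weights), other scaling, filter, library sets and covariates, and leaving out each library or rat.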

Additional observations from a re-analysis of the deposited data

Results flagged for a closer look

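Of 166 groups of 4 libraries examined, 15 held a library whose gap to the nearest other was large for the group's range. For independent, normally distributed values chance flags about 1 group in 20. The values here are untransformed CPM of genes partly chosen by small p, so that rate cannot show an excess. Each of the following values is the CPM of the library that stood apart. In IM, the rat 2 membrane stood apart with Gap43 (52.9), Sbsn (33.96), Mfap5 (576.4) and C1qb (500.3), all above the other membranes, and with Gorasp2 (134.0), below them. The rat 3 membrane stood apart with Dlx5 (16.7) and Sost (9.71), genes of osteoblasts and osteocytes, above the others, and with Acta2 (368.0), below them. The rat 1 membrane stood above the others for Comp (490.6), a cartilage and tendon matrix protein.

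In PFNU, the rat 1 library stood above the other 3 for Cxcl10 (172.5), Socs3 (15.3), Gfpt2 (46.1) and Has1 (3.50). The rat 4 library stood above the others for the slow muscle genes Myh7 (3031) and Myl2 (519.3). Gap43, Sbsn, Myh7 and Myl2 were called between IM and PFNU, and none of their groups overlapped.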

How the results depend on the processing

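The counts of calls moved with nearly every choice. Against 47 genes with the rat block, 111 were called without the replicate block, 714 by DESeq2 (374 higher and 340 lower), 187 with the muscle covariate (113 higher and 74 lower, and 31 of the 47 among them), and 0 by limma-voom (1751 at an unadjusted p under 0.05), 0 with the erythroid covariate (1278), and 0 with the 8 libraries alone and the replicate block (1256). RLE factors gave 50, no filter 44, and leaving marrow and muscle genes out of library sizes 46. Leaving out 1 library or 1 rat gave 0 to 103. The difference between defect tissue and bone gave 259 calls by DESeq2, 20 by limma-voom and 0 to 11 with libraries left out, against 0. The causes were not tested; without a library or rat, fewer samples enter the fit.

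Of 1743 values of named genes under the alternatives, 17 changed sign, none of them of a called gene. The log2 fold change of Mrc1 was -0.018 by limma-voom, -0.31 with the muscle covariate, and -0.11 to 0.76 with libraries or rats left out. That of Hspa5 was -0.059 by limma-voom, -0.22 with the muscle covariate and -0.064 to 0.38 with libraries or rats left out. Cd68 was -0.21 with the muscle covariate. With the erythroid covariate Tgfb1 was -0.016, P4ha3 -0.054, Acta2 -0.31 and Sost 0.14. Gpnmb ran from -0.84 to 0.35 with libraries or rats left out. The list medians of stromal, matrix, Golgi traffic, translocation and macrophage identity genes stayed above 0 under all 21 alternatives; the chaperone median fell below 0 under 1 and the lysosome median under 1. What limited the number of calls, depth or the spread between rats, was not tested.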

Other observations

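Among the 37 genes called lower in IM (0.288% of genes tested), 5 that mast cells are known to express were picked after their values were seen, with no mast cell list to count them against. They were Mcpt2 (log2FC -3.83, SE 0.47, adjusted p = 0.0106) and Mcpt10 (log2FC -2.45, SE 0.45, adjusted p = 0.0412), proteases of mast cell granules, Hdc, which makes histamine (log2FC -1.70, SE 0.26, adjusted p = 0.0235), Tph1, which begins serotonin synthesis (log2FC -1.75, SE 0.28, adjusted p = 0.0247), and Slc18a2, which loads amines into granules (log2FC -1.66, SE 0.29, adjusted p = 0.0368). Mcpt1, another such protease (log2FC -3.64, SE 0.66, adjusted p = 0.0409), and Kit, given above, were called lower too. Mcpt2 averaged 0.286 ± 0.206 CPM in IM and 4.07 ± 2.48 CPM in PFNU, and Hdc 2.31 ± 1.07 CPM in IM and 7.54 ± 3.66 CPM in PFNU (SD, n = 4 each). In bone beside the spacer, Hdc (log2 fold change -1.06, adjusted p = 0.0435) and Slc18a2 (-1.18, adjusted p = 0.0414) were called lower too. Mcpt2, Mcpt10 and Tph1 were not called there. Mcpt2, Mcpt10, Hdc, Tph1 and Slc18a2 averaged 32.0, 136, 49.2, 28.5 and 14.7 CPM in bone by the empty defect. In PFNU they averaged 4.07, 18.9, 7.54, 5.68 and 2.51 CPM. With the erythroid covariate, a fit that called 0 genes, their edgeR adjusted p ran from 0.113 to 0.241. The part of marrow in their differences was not tested. Mast cell genes that did not pass the test had values of -1.85 for Cpa3, the carboxypeptidase of the granules (adjusted p = 0.0843), -1.56 for Tpsab1, a tryptase (adjusted p = 0.106), and -1.78 for Ms4a2, a chain of the IgE receptor (adjusted p = 0.0711). The rat protease genes are close copies of each other, so reads may be split between them.

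Of 4 genes of leukotriene synthesis, Ltc4s was called higher and the other 3 did not pass the test. Alox5, the lipoxygenase that starts the route, had 37.3, 41.1, 29.5 and 26.0 CPM in the membranes and 24.1, 13.9, 13.8 and 14.98 CPM in PFNU (log2FC 1.01, SE 0.19, adjusted p = 0.0502). Alox5ap, its helper protein, had 42.5, 79.1, 30.3 and 32.6 CPM in the membranes and 25.8, 19.3, 19.7 and 13.3 CPM in PFNU (log2FC 1.21, SE 0.28, adjusted p = 0.0909). Lta4h, which turns the shared intermediate to leukotriene B4, had a log2 fold change of 0.50 (adjusted p = 0.234). Membranes were above all PFNU libraries for Alox5 and Alox5ap. All 4 genes were chosen after their values were seen.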
